A study of Mus musculus with 12 samples.

Results

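The 380 probes described here form the second largest family of overlapping probes on a mouse long non-coding RNA array that carries 90752 probes of 60 bases. Probes were linked where they shared at least 25 consecutive bases on the same strand, and every probe that could be reached through such links was taken as a member. Only probe sequences chose the members, and no signal entered the choice. A member shared such a run with 1 to 136 others (median 36), so members read overlapping or near-identical sequence and are not independent measurements. No probe on the array held a run of 25 bases of the family's opposite strand (0 of 90752).

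The arrays measured total RNA from the distal 0.5 cm of the sciatic nerve of C57Bl6 mice aged about 2 months. The right nerve was crushed for 30 s, which disconnects the axons and leaves the outer sheath whole, and tissue was collected on the day of injury (day 0) and at days 3, 7 and 14. Each day had 3 arrays of 1 colour, each with RNA pooled from 6 mice, or 18 mice a day and 72 in all. Since each array held a pool, p-values measure the spread between pools and arrays. Labelled RNA was made with a whole-transcript amplification kit after column purification, per the labels' protocols. The arrays lay on 3 slides: slide 1 held replicates 1 and 2 of day 0 and of day 3, slide 2 held replicate 3 of both and replicates 2 and 3 of day 7, and slide 3 held replicate 1 of day 7 and all of day 14. The labelled tissue was not checked against marker genes, since no file links a probe to a gene.

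The members were laid on a common line by their shared runs, and the majority base was read at each position. This gave a consensus of 96 bases, against which each member was aligned. As background, a microarray probe binds any labelled RNA that carries its complement, so probes designed for separate transcripts that hold copies of one repeated sequence can read the same RNA. Mammalian genomes hold many such copies, which diverge from each other over time, and a CpG, a C followed by a G, is where such copies often differ, since its C is commonly methylated in mammals and methylated C readily turns into T. The files name no RNA for these probes, and none is assigned to a gene here.

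Members were sorted by where on the consensus they begin, counted from 1 at its 5′ end. The 5′ window holds 66 members that begin at position 28 or before, and the 3′ window holds 269 that begin at position 36 or later. Another 19 begin between these windows, and 26 with 10 or more bases outside the consensus are called tailed. A probe with 0 to 2 differences is called near-consensus, one with 3 to 5 moderately diverged, and one with 6 or more diverged. There were 31 near-consensus, 15 moderate and 20 diverged probes in the 5′ window, against 39, 106 and 124 in the 3′ window. The representative of a class is its member with the most overlap partners. Only 2 members had no difference at all, both in the 5′ window.

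Differences from the consensus were concentrated in CpG positions. Of the bases aligned to the C or G of a CpG, 31.8% differed (886 of 2790), against 4.96% of other C and G bases (369 of 7445) and 2.38% of A and T bases (270 of 11339). Among the differing CpG bases 86.2% were transitions, changes of C to T or G to A, against 66.1% of differing C and G bases elsewhere. The median GC content was 41.7% in the family and over all probes. These are counts over related sequences and describe the probe set.

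Nearly every member was measurable. A total of 371 members (97.6%) reached the detection limit, with all 3 arrays of some day well above background, and were tested, against 69.2% of all probes, and 365 were so on all 12 arrays. The 9 members not tested were all diverged or tailed, and 6 members were above background on no array. No member was saturated. Signals are log2 of the scanner's processed intensity, shifted so that all arrays have the same 75th percentile. The median SD between arrays of a day was 0.10 for a tested member, against 0.17 over all tested probes. For members it was 0.12 at day 0, 0.18 at day 3, 0.08 at day 7 and 0.05 at day 14. Over all tested probes it was 0.19, 0.22, 0.16 and 0.12 on these days, in the same order of size. The day 14 arrays all lay on slide 3, while those of each other day lay on more than 1 slide. Spots well above background made up 64.2% to 79.5% of an array's spots, with the highest shares on slide 1.

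The family was bright. Its members' signals, averaged over the 12 arrays, had a median of 10.75 and ran from 1.79 to 12.78, against a median of 6.41 over all probes and 17.44 over the 503 probes of the largest family. Signals of different probes also depend on how each probe binds and are not amounts of RNA, so the class values that follow describe probes. Near-consensus probes had a median of 12.23 in the 5′ window (11.26 to 12.74) and 11.95 in the 3′ window (10.60 to 12.48). Moderate and diverged probes of the 3′ window had medians of 10.95 and 9.72, and tailed probes 8.69. In the 3′ window, the 65 probes that kept none of the 4 CpGs there had a median of 9.32, against 11.62 for the 38 that kept 3. The 6 that kept all 4 had a median of 11.53. These groups also differed in all differences from the consensus, with medians of 7, 2.5 and 1. Across the 380 members, signal went with the number of differences (Spearman rho = -0.67) and with the number of overlap partners (rho = 0.83). These correlations are across probes that share sequence and arrays, and they carry no test.

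Taken over all its members, the family moved little over the 14 days. Its median was 10.69, 10.67 and 10.70 on the day 0 arrays, 10.66, 10.73 and 10.85 at day 3, 10.70, 10.78 and 10.69 at day 7, and 10.83, 10.78 and 10.84 at day 14. The day 14 arrays all lay above the day 0 arrays, while those of day 3 overlapped them. On every array the family's median stood between the 83.7th and the 84.8th percentile of all probes. An F test over the 4 days called 112 tested members (30.2%), against 71.1% of all tested probes. Fold changes of 2 or more were called for 2 members at day 3, 1 at day 7 and 4 at day 14 relative to day 0, while 18.7%, 16.6% and 17.4% of all tested probes passed that rule.

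Day 3 was set against day 0 to ask what had changed early after the crush. Near-consensus 5′ probes were higher and near-consensus 3′ probes showed no called change. Over the whole family 59 of 371 members rose (15.9%) and 7 fell (1.89%), where 21.7% of all tested probes rose and 22.7% fell (limma, adjusted p below 0.05). Both shares lie below the background. The median log2 fold change was 0.08, against 0.03 over all tested probes. Of the 66 probes of the 5′ window 38 rose and 1 fell, against 14 and 5 of the 265 tested in the 3′ window, 5 and 1 of 24 tailed probes and 2 and 0 of 16 between the windows.

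The median of the 31 near-consensus 5′ probes was 12.09, 12.26 and 12.66 on the day 3 arrays, against 11.79, 11.76 and 11.96 on the day 0 arrays. All day 3 arrays lay above all day 0 arrays. The median of the 39 near-consensus 3′ probes was 11.78, 11.82 and 12.20 at day 3, against 11.82, 11.76 and 11.93 at day 0, and the groups overlapped. The 3′ representative read 12.11, 12.19 and 12.57 at day 3, against 12.22, 12.19 and 12.44 at day 0, also with overlap (change 0.01, SE 0.13, limma adjusted p = 0.976). Among near-consensus 5′ probes 22 of 31 rose, all 31 had a change above 0 and 24 did not overlap between the days, with a median change of 0.50. Overlap was not counted over all tested probes, so the count without overlap has no background. Among near-consensus 3′ probes 0 of 39 were called (0 also at an unadjusted p below 0.05), and the median change was 0.04.

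The same contrast can be read on each array, as the median of the 31 near-consensus 5′ probes minus that of the 39 near-consensus 3′ probes. At day 0 this difference was -0.03, 0.00 and 0.03. At day 3 it was 0.32, 0.43 and 0.46, at day 7 0.23, 0.46 and 0.24, and at day 14 0.41, 0.22 and 0.34. No array after the injury fell to the day 0 values. The split was seen on every slide that held both kinds of array: on slide 1 it was 0.37 at day 3 against -0.01 at day 0, and on slide 2 0.46 at day 3 and 0.35 at day 7 against 0.03 at day 0. Day means were 0.00 ± 0.03 at day 0, 0.40 ± 0.08 at day 3, 0.31 ± 0.13 at day 7 and 0.32 ± 0.10 at day 14 (SD, n = 3 each). The later days overlapped with each other. The classes were set from sequence after earlier results of these data were known, and no test was made of this difference.

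Within the 5′ part of the consensus, the day 3 change was larger for members that begin further upstream. Tested members that begin at positions 1 to 8 had a median change of 0.85 (n = 10), those at 9 to 16 of 0.52 (n = 30), those at 17 to 24 of 0.38 (n = 29) and those at 25 to 28 of 0.26 (n = 5). From position 29 to 35 the median was 0.13 (n = 19), at 36 it was 0.10 (n = 14), at 37 it was 0.04 (n = 227), at 38 it was -0.19 (n = 10) and from 39 to 60 it was 0.05 (n = 27). The bins with fewer than 20 probes are thinly filled. Across the 371 tested members the starting position and the change had a Spearman rho of -0.52, a description over probes that share sequence and arrays. At the later days the first bin left this order. Relative to day 0, members that begin at 1 to 8 had median changes of -0.07 at day 7 and -0.38 at day 14. Those at 9 to 16, 17 to 24 and 25 to 28 had 0.41, 0.31 and 0.27 at day 7. At day 14 those had 0.54, 0.41 and 0.34. The median signal was 7.64 for members that begin at 1 to 8 and 12.11 for those at 9 to 16. Most members that begin at 1 to 8 were diverged or tailed, so position and divergence are mixed in that bin. At day 14 relative to day 0, 3 of them were called higher and 3 lower. Its members with only 3 differences were among those called higher.

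For the 31 near-consensus 5′ probes the count that rose at day 3 was 29 in a fit that also holds a fixed term for each slide (the fixed slide block), and 22 within slide 1. Within slide 2, with 1 array of each of these days and the spread taken from its 2 day 7 arrays alone, 0 were called and 18 passed an unadjusted p below 0.05, with a median change of 0.71. Without replicate 2 of day 0 or replicate 3 of day 3, 10 were called. With only the 6 arrays of these days in the fit, 11 were called.

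The members with the greatest called changes at day 3 were dim and diverged. MOUSELNCRNA_47750 read 7.83, 7.72 and 8.21 at day 3, against 6.80, 6.88 and 6.54 at day 0 (change 1.18, SE 0.16, limma adjusted p = 0.000121). MOUSELNCRNA_61029 read 8.60, 8.87 and 8.08 at day 3, against 7.84, 7.86 and 6.74 at day 0 (change 1.03, SE 0.34, limma adjusted p = 0.0268). In both, every day 3 array lay above every day 0 array. MOUSELNCRNA_20254 fell, with 7.01, 7.06 and 6.87 at day 3, against 7.76, 7.82 and 7.51 at day 0 (change -0.72, SE 0.14, limma adjusted p = 0.00126). MOUSELNCRNA_31776, which begins at position 38 and has 16 differences, read 9.01, 9.08 and 8.83 at day 3, against 9.18, 9.49 and 9.88 at day 0 (change -0.54, SE 0.17, limma adjusted p = 0.0224). These 4 probes each share runs with 1 to 8 others only, at the thin edge of the family.

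Day 7 was set against day 0 for the change at 1 week. Over the family 40 members rose (10.8%) and 18 fell (4.85%), where 20.4% of all tested probes rose and 24.0% fell. The median change was 0.09, against -0.11 over all tested probes. Of the rises, 28 lay in the 5′ window. There 19 of 31 near-consensus probes rose, with a median change of 0.43, against 0 of 39 near-consensus 3′ probes (1 at an unadjusted p below 0.05), with a median of 0.15. On the day 7 arrays the median of these 5′ probes was 12.16, 12.53 and 12.16, against 11.79, 11.76 and 11.96 at day 0, without overlap. That of the 3′ probes was 11.93, 12.07 and 11.93, against 11.82, 11.76 and 11.93, with the lowest day 7 array just below the highest day 0 array. These calls changed with slide and with single arrays. Under the fixed slide block 0 of the 31 were called and 5 passed an unadjusted p below 0.05, the median change being 0.30. Without replicate 2 of day 7 or replicate 2 of day 0, 0 of the 31 were called, without replicate 1 of day 0 it was 1, and without replicate 3 of day 7 it was 10. Over the family, 20, 19 and 106 members were called without replicates 1, 2 and 3 of day 0, and 18 and 38 without replicates 2 and 3 of day 7. Quantile normalization gave 70 higher and 18 lower.

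Several dim members changed at day 7. MOUSELNCRNA_47750 was still higher, at 7.35, 7.43 and 7.57, against 6.80, 6.88 and 6.54 at day 0 (change 0.71, SE 0.16, limma adjusted p = 0.00447). MOUSELNCRNA_2636 fell, with 6.87, 7.04 and 7.30 at day 7, against 8.39, 8.50 and 7.87 at day 0 (change -1.18, SE 0.29, limma adjusted p = 0.00703). MOUSELNCRNA_87124, which begins at position 35, read 6.01, 6.40 and 6.13 at day 7, against 7.19, 7.16 and 7.13 at day 0 (change -0.98, SE 0.16, limma adjusted p = 0.000665). The groups did not overlap in any of these. The fixed slide block put the fall of MOUSELNCRNA_2636 at -0.52 (limma adjusted p = 0.0656) and that of MOUSELNCRNA_87124 -0.69 (limma adjusted p = 0.0119).

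Day 14 was set against day 0 for the change at 2 weeks. Of the 371 tested members 56 rose (15.1%) and 25 fell (6.74%), where 19.4% of all tested probes rose and 29.0% fell. The median change was 0.17, against -0.13 over all tested probes. In the 5′ window 28 of 31 near-consensus and 10 of 15 moderate probes rose, while among 20 diverged ones 4 rose and 3 fell. All 31 near-consensus 5′ probes had every day 14 array above every day 0 array, with a median change of 0.55. Near-consensus 3′ probes had 0 of 39 called, but 13 passed an unadjusted p below 0.05, all 39 had a change above 0, 38 did not overlap between the days, and the median was 0.27. The difference between the windows was not tested, and the counts without overlap have no background over all tested probes. Under quantile normalization 29 of these 39 were called, and without replicate 3 of day 0 it was 21.

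On the day 14 arrays the median of the near-consensus 5′ probes was 12.55, 12.26 and 12.43, against 11.79, 11.76 and 11.96 at day 0. That of the near-consensus 3′ probes was 12.14, 12.04 and 12.08, against 11.82, 11.76 and 11.93. Neither overlapped between the days. The 3′ representative read 12.59, 12.52 and 12.56, against 12.22, 12.19 and 12.44 at day 0, also without overlap (change 0.27, SE 0.13, limma adjusted p = 0.100). MOUSELNCRNA_15164, which begins at position 11 and has 10 differences, rose most in this comparison, with 12.57, 12.16 and 12.36 at day 14, against 11.52, 11.51 and 11.62 at day 0 (change 0.81, SE 0.19, limma adjusted p = 0.00635). Day 14 and day 0 shared no slide. Under the fixed slide block, where the comparison runs through the day 7 arrays, 0 of the 31 near-consensus 5′ probes were called and 17 passed an unadjusted p below 0.05, while the median change was 0.52. Treating slide as a random block gave 17 calls. Without replicate 2 of day 0 or replicate 1 of day 14, 15 were called. Over the family, 41, 34 and 171 members were called without replicates 1, 2 and 3 of day 0, and 39 and 46 without replicates 1 and 3 of day 14. Quantile normalization gave 145 higher and 14 lower. That scaling moved the median of all tested probes by 0.14 on the log2 scale in this comparison. Relative to that median, near-consensus 5′ and 3′ probes stood at 0.59 and 0.32 with it, and at 0.68 and 0.40 with the percentile scaling.

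The falls at day 14 were in dim probes. MOUSELNCRNA_2636 read 6.98, 7.03 and 7.29 at day 14, against 8.39, 8.50 and 7.87 at day 0 (change -1.16, SE 0.29, limma adjusted p = 0.00868). MOUSELNCRNA_46747, a 5′ window probe with 4 differences, read 6.95, 6.80 and 7.11 at day 14, against 8.31, 8.36 and 7.39 at day 0 (change -1.07, SE 0.30, limma adjusted p = 0.0139). In both, replicate 3 of day 0, on slide 2, was lower than the slide 1 replicates of that day. The fixed slide block gave changes of -0.30 (limma adjusted p = 0.544) and -0.14 (limma adjusted p = 0.681). For 4 members that were measurable throughout an earlier day and on no array of day 14, the day 14 value is only a bound, and no fold is given.

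Signal level, slide and change went together in the family. Of the 93 tested members with the highest mean signal 36 rose and 0 fell at day 14 relative to day 0, and of the 93 dimmest 1 rose and 25 fell. Over all tested probes 19.4% rose and 29.0% fell. The bright members held 34 probes of the 5′ window and the dim ones 15, so class and signal level are mixed in these counts. Mean signal and the day 14 change had a Spearman rho of 0.80 over the 371 members, against 0.23 over the 62803 tested probes. At day 7 these were 0.68 and 0.21, and at day 3 they were 0.12 and 0.09. Under the fixed slide block the family's values were 0.40 at day 14 and 0.10 at day 7. Without that block the day 14 value was 0.73 within the 3′ window and 0.80 within the 5′ window. They are across probes, on shared arrays, and carry no test.

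The distance between the medians of these 93 bright and 93 dim members went with the slide. It was 3.77 and 3.78 on the slide 1 arrays of day 0 and 3.82 and 3.78 on those of day 3, against 4.44 for the slide 2 array of day 0 and 4.76 for that of day 3. On the day 7 arrays it was 4.57, 4.65 and 4.58, and at day 14 it was 4.73, 4.68 and 4.65. The 4 arrays of slide 1 thus stood apart from the other 8, whatever their day. Dim members read 8.06 to 8.25 on slide 1 and 7.55 to 7.67 on the other slides. The part of this slide difference in the falls of dim members was not tested further than by the slide block, under which 0 members were called at day 14 in either direction (31 at an unadjusted p below 0.05, 28 higher and 3 lower).

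The later days were also set against each other. At day 7 relative to day 3, 3 members were higher and 41 lower, where 15.7% of all tested probes were higher and 18.6% lower, and the median difference was -0.04. At day 14 relative to day 7, 0 were higher and 2 lower, where the background was 5.61% and 4.35%. At day 14 relative to day 3, 23 were higher and 48 lower, where the background was 21.9% and 32.8%. Without 1 array of the days compared, the calls numbered 2 to 109 for day 7 relative to day 3, 0 to 1 for day 14 relative to day 7 and 22 to 175 for day 14 relative to day 3. The highest counts came without replicate 3 of day 3 (109 and 175). Quantile normalization gave 22 higher and 37 lower, 2 and 1, and 99 and 43 in these comparisons. It turned the median difference of day 7 relative to day 3 to 0.02, and normexp background correction gave 42 higher and 52 lower at day 14 relative to day 3. None of the near-consensus 5′ probes was called in these 3 comparisons (0 of 31, 0 also at an unadjusted p below 0.05). Among diverged 5′ probes 11 of 20 were lower at day 14 than at day 3, while 15 of 106 moderate 3′ probes were higher and 3 lower. Under the fixed slide block 0 of the 371 members were called in each of these 3 comparisons (21, 36 and 5 at an unadjusted p below 0.05), and day 14 and day 3 shared no slide. MOUSELNCRNA_31776 read 9.68, 9.70 and 9.82 at day 7, against 9.01, 9.08 and 8.83 at day 3 (change 0.75, SE 0.17, limma adjusted p = 0.00806), and 8.86, 9.21 and 9.12 at day 14 (change from day 7 -0.67, SE 0.17, limma adjusted p = 0.0308). MOUSELNCRNA_81882 had called changes in the same directions, of 0.52 at day 7 relative to day 3 (limma adjusted p = 0.0230) and -0.58 at day 14 relative to day 7 (limma adjusted p = 0.0320). With the slide term none of these was called: the changes of MOUSELNCRNA_31776 were 0.67 (limma adjusted p = 0.0584) and -0.61 (limma adjusted p = 0.194), and those of MOUSELNCRNA_81882 were 0.60 (limma adjusted p = 0.0562) and -0.54 (limma adjusted p = 0.198).

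MOUSELNCRNA_90460 is a diverged probe that begins at position 2, and its mean was highest at day 3. It gave 6.75, 6.30 and 6.72 at day 14, against 8.19, 8.45 and 7.48 at day 3, without overlap (change -1.45, SE 0.32, limma adjusted p = 0.00397). MOUSELNCRNA_25651, which also begins at position 2, changed by -1.31 (SE 0.27, limma adjusted p = 0.00268). Its values were 6.41, 6.33 and 6.48 at day 14, against 7.92, 8.14 and 7.10 at day 3. Fitted with the slide term, these changes were -0.27 (limma adjusted p = 0.573) and -0.54 (limma adjusted p = 0.0748). The change of MOUSELNCRNA_90460 at day 3 relative to day 0, 0.85 (limma adjusted p = 0.0514), was unchanged in size and had a limma adjusted p of 0.00132 with that block, since both days lay on slides 1 and 2. With the replicate number as a block its limma adjusted p was 0.0434.

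Over the 3 comparisons with day 0, which share the day 0 arrays, 115 members were called at least once and 256 at no time. A total of 33 rose on all 3 later days, 19 of them near-consensus 5′ probes, and 2 fell on all 3. No member was called in opposite directions at day 3 and day 14 with the difference between those days also called (0 of 371). Of those that rose at day 3, 39 were also higher at day 14 than at day 0, and 11 also had a called fall between day 3 and day 14. These patterns were not counted over all tested probes, so whether they are particular to the family was not tested.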

How the data were processed

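The members, classes and tests were chosen with earlier results of these data known. Intensity per spot was deposited by the authors as scanner output of Agilent Feature Extraction (10.7 in the submitters' processing notes, 10.7.1.1 in the file headers), corrected for background within an array but not normalized between arrays. The authors also deposited a table of log2 values, used as an alternative. Its columns had medians of 6.42 and correlated at 0.993 to 1.00 with the log2 scanner signals, and how it was made is not given in the sources used here. Its counts of called members were nearly those of quantile normalization, so it adds little as a separate alternative.

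Control and outlier-flagged spots were left out, and log2 signals of repeated spots were averaged (358 members had 2 spots and 22 had 1). Arrays were brought to 1 shared 75th percentile, 9.34. Of 90752 probes, the 62803 measurable on all 3 arrays of some day were fitted with limma 3.58.1 (R 4.3.3), with 1 mean per day over 12 arrays and 8 residual degrees of freedom. A probe was called at a two-sided Benjamini-Hochberg adjusted p below 0.05 over all tested probes. No member value was missing. The fit and the family finder were tested on simulated data. Precision is limited by the 3 arrays per day.

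The consensus started from the most frequent run of 25 bases and grew by the commonest next base while at least 3 members held the resulting run of 16 bases, and the majority base was then taken at each position. Each member was then aligned to it locally (Biopython 1.88). The sequences used were those in the scanner files. Named probes were, per comparison, the 2 largest rises and 2 largest falls among called, measurable members with no overlap between the days, plus the class representatives. MOUSELNCRNA_90460, named for another comparison, is also described at day 3. Probe and consensus sequences, and the values of some probes this rule picks, are not reported here. Planned gene markers need gene names and were not run.

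The main fit pairs no arrays and holds no slide term. Same-numbered arrays of day 0 and day 3, which share slides, deviated together (correlations 0.351, 0.507 and 0.637). Differently numbered arrays of slide 1 did so as well (0.385 and 0.471), so the sharing of day 0 and day 3 was not particular to the number. On slide 2 the day 0 array correlated at -0.434 and 0.135 with the day 7 arrays. The day 3 array of that slide correlated at -0.0887 and -0.143 with them. Same-numbered arrays of day 0 and day 7 did not all deviate together (-0.186, 0.370 and 0.135). The source of the shared deviations was not tested. Alternatives were other scalings, background corrections and filters, the deposited table, slide as a block and fits within slides, a replicate block, only the arrays compared, leaving out each array, and other run lengths for the family.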

Additional observations from a re-analysis of the deposited data

How the results depend on the processing

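For the alternative fits, here and above, counts are of family members only, and the share of all tested probes called in the same fit is not given. They therefore do not show whether a shift in calls is particular to the family. In the main fit, called members numbered 66, 58 and 81 for days 3, 7 and 14 relative to day 0. They numbered 44 and 71 for days 7 and 14 relative to day 3, and 2 for day 14 relative to day 7. In that order, slide as a fixed block gave 116, 30, 0, 0, 0 and 0 (31, 21, 5 and 36 at an unadjusted p below 0.05 for the zeros), as a random block 106, 40, 24, 17, 5 and 1, and quantile normalization 75, 88, 159, 59, 142 and 3, with 75, 88, 160, 59, 142 and 3 from the authors' deposited table. Within slide 2 the counts were 12, 2 and 0 for days 3 and 7 relative to day 0 and day 7 relative to day 3 (7 at an unadjusted p for the last), and within slide 3 it was 0 for day 14 relative to day 7 (13 unadjusted). With only the arrays compared, 26 were called at day 3, 20 for day 7 relative to day 3 and 8 for day 14 relative to day 7. Without a filter on dim probes it was 37 at day 7, 22 for day 7 relative to day 3 and 0 for day 14 relative to day 7 (15 unadjusted), and 4 in the last with probes above background on all arrays.

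A shared run of 20 bases joins 1693 probes, of which 1591 were tested and 151, 462, 489, 333, 451 and 16 called. A run of 30 bases leaves 274, of which 273 were tested, with 18, 30 and 0 calls (7 unadjusted) in the last 3 comparisons listed. In the same fit 21.7% of all tested probes rose and 22.7% fell at day 3 relative to day 0. At day 7 it was 20.4% and 24.0%, and at day 14 19.4% and 29.0%. The shares for the other comparisons are those given above. Without 1 array at a time the ranges were 45 to 62, 18 to 106, 34 to 171, 2 to 109, 22 to 175 and 0 to 1, and the family medians ran from 0.04 to 0.12, 0.05 to 0.11, 0.15 to 0.19, -0.084 to 0.047, -0.00104 to 0.130 and 0.062 to 0.129. The medians were 0.0046 and 0.016 at day 7 and 0.11 and 0.14 at day 14 relative to day 0 under the fixed and the random slide block. For day 14 relative to day 7 it was 0.13 with the fixed block and within slide 3. Within slide 2 they were 0.19 at day 3 relative to day 0 and -0.15 at day 7 relative to day 3. The replicate block gave 66, 53, 94, 45, 88 and 2 calls, moved none of these counts by over 1.5 times and kept the calls of named probes in the comparisons they were picked for. It added calls for MOUSELNCRNA_90460 at day 3 (limma adjusted p = 0.0434) and MOUSELNCRNA_33076 at day 14 (limma adjusted p = 0.0381), both relative to day 0. The cause of these changes was not tested.

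In the comparisons for which the naming rule picked its probes, 268 of the alternative results kept their direction and call. Another 80 kept the direction without the call, and 0 reversed. The rule took only probes without overlap between the days. Dropping a single array leaves their direction unchanged, so the 0 was partly set by the rule. In other comparisons the fixed slide block reversed some uncalled changes of these probes. MOUSELNCRNA_90460 at day 14 relative to day 0 went from -0.6 to 0.579. MOUSELNCRNA_2636 at day 14 relative to day 3 went from -0.542 to 0.318. Such reversals were not counted. No fit within a slide was possible for day 14 relative to day 0 or to day 3, since no slide held both. With 3 arrays a day, on slides that partly coincide with days, small changes cannot be told apart from slide at day 14.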
